A study of Mus musculus with 2 samples.

Results

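Among lymphoid progenitors sorted from mouse bone marrow, 227 cells carried transcripts of Gata3, Bcl11b and Maf together while lacking the receptor transcripts of mature group 2 innate lymphoid cells (ILC2) and the high Zbtb16 of their precursors. These cells are called the Maf Bcl11b intermediates here. A barcode was counted as one when it had at least 1000 genes, at most 10% of its transcripts from the mitochondrial genome, at least 1 transcript each of Gata3, Bcl11b and Maf, at most 1 of Il1rl1, Hs3st1 and Il2ra summed, at most 1 of Zbtb16, and 0 of Cd3d, Cd3e and Cd3g. All of these limits are on raw counts of unique molecular identifiers (UMIs, each a captured RNA molecule), so the values of these 10 genes chose the cells and are given only as a description. The 227 intermediates were found among 7633 barcodes that passed the gene and mitochondrial limits, of 28769 deposited.

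The series holds 2 libraries, 1 from wild-type C57BL/6 mice (LCR1+/+, here WT) and 1 from mice with LCR1 knocked out (LCR1-/-, here KO), and asks what the loss of LCR1 does to ILC2 development. In both, marrow of animals aged 8 to 12 weeks, pooled within a genotype with equal numbers of males and females, was sorted for viable CD45+, lineage-negative, CD127+ cells. Neither the place of LCR1 nor the number of animals pooled is stated in the labels, and no captured transcript reads the deletion itself. With 1 pooled library per genotype, no difference below has a replicate check or a test, and the intervals cover counting error only.

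ILC2 are tissue lymphocytes without antigen receptors that make type 2 cytokines when alarmins reach them. They arise in the marrow from an innate lymphoid cell (ILC) precursor that uses Zbtb16, which encodes PLZF, and they require the transcription factors GATA3, RORA and BCL11B. MAF is a basic leucine zipper factor with roles in several lymphocyte types, and ID2 binds E proteins, keeping those factors off DNA in all ILC. The T cell lineage shares GATA3, BCL11B and TCF1 (Tcf7) with these cells, so the genes of the rule do not belong to ILC2 alone.

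The promoter windows of 2 genes are shown: Id2, which was lower in KO under every alternative tried, and Il17rb, the receptor subunit for interleukin-25 and a marker of these cells, whose levels were nearly equal in the libraries. Id2 is annotated as protein coding on the minus strand at chr12:25093799-25097140 in GENCODE vM21, and Il17rb on the minus strand at chr14:29996135-30008896 (GRCm38). RefSeq places the start of Id2 at base 25096092, 1048 bases inside the GENCODE gene, and that of Il17rb at the same base as GENCODE. The windows, from RefSeq (GRCm38.p6), run from 250 bases before to 50 bases after the RefSeq start site, 5′ to 3′ on the gene's strand, at chr12:25096043-25096342 for Id2 and chr14:30008847-30009146 for Il17rb. Capitals mark the E protein words CAGCTG, which reads the same on both strands, and CAGGTG, which reads CACCTG on the other strand.
Id2: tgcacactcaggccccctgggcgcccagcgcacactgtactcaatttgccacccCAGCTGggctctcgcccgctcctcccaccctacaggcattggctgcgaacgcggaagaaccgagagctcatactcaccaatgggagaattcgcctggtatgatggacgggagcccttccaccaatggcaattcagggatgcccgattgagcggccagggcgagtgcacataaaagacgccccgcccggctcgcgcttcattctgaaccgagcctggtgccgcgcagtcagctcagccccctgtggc
Il17rb: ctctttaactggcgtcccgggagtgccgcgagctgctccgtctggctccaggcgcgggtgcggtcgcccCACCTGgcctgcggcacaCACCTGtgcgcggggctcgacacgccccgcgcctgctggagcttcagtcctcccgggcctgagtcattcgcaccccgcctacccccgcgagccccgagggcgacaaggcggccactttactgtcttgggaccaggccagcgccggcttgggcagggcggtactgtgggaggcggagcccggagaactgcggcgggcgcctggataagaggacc
The Id2 window holds 1 such word, CAGCTG, whose first base lies 196 bases before the RefSeq start site. The Il17rb window holds 2, both CACCTG, the first beginning 181 bases before the start site. At least 1 of these words occurs in 35.9% of the 27025 genes with a window, so a match is a description of the letters and not of binding.

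The intermediates made up 49 of 3290 filtered WT barcodes, or 1.49% (exact Clopper-Pearson 95% interval 1.10 to 1.96), and 178 of 4343 KO barcodes, or 4.10% (3.53 to 4.73). The KO share was 2.75 times the WT share (1.996 to 3.86, counting error only). The rule needs single UMIs of 3 genes and so depends on depth, and the KO cells were deeper: the median intermediate had 7260.5 UMIs in KO (2127 to 30590) and 5221 in WT (1872 to 25287). With each cell thinned to 2000 UMIs before the rule was applied, the ratio was 1.54. A minimum of 500 genes per barcode, which kept 10519 WT barcodes in place of 3290 and 4489 KO barcodes in place of 4343, gave 5.24. The direction of the share held in all 8 settings tried, while its size did not. A lineage-negative CD127+ sort gives shares of sorted cells, so a larger share and fewer other cells in the sort cannot be told apart.

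Both end points were taken by rules on the same libraries. Zbtb16-high precursors, with at least 2 Zbtb16 UMIs, numbered 89 in WT and 301 in KO, and ILC2, with at least 3 UMIs of the receptor genes, numbered 649 and 512. Early B cells, 199 and 469, served as a background for free RNA. The median depth of precursors was 13321 UMIs in WT and 10271 in KO, above that of intermediates and ILC2 (5705 and 4771.5), and the doublet caller Scrublet marked 2 KO intermediates and no WT barcode at all. Where the highest-scoring 8% of WT barcodes were taken instead, 4 WT intermediates were among them. Barcode sequences shared between the libraries numbered 75 overall and 0 among intermediates.

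One WT intermediate stands apart: 3295 of its 5221 UMIs were haemoglobin transcripts, which the lineage-negative sort should remove. The summed level of 16 erythroid and neutrophil markers was 11101 counts per 1000000 UMIs (CPM) in WT intermediates, 634 without that cell, and 54.2 in KO. More than 10 such UMIs were found in 3 WT and 1 KO intermediates, and of the 16 markers 1 was at 0 in WT and 6 in KO. All 9 measured markers of this list were called lower in KO by the rule given below, beside 2.48% of all measured genes, and 0 of the 9 stayed called without each gene's highest cell. Leaving out the 4 cells with more than 10 such UMIs gave 122 called genes higher and 83 lower, beside 128 and 92 with them.

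The level of a gene in a population is its summed UMIs over all UMIs of that population's cells, in CPM with an exact Poisson interval. The genes that chose the cells had these levels: Maf 563 CPM in WT and 928 in KO, Bcl11b 395 and 670, Gata3 762 and 669, and Zbtb16 28.5 and 30.1. Per cell, Maf had 1 to 18 UMIs in WT (median 2) and 1 to 28 in KO (median 6), and Bcl11b 1 to 9 (median 2) and 1 to 28 (median 4). The alarmin receptor gene Il1rl1, of which the rule allows 1 UMI, was read in 14 of 49 WT and 11 of 178 KO intermediates. Cells just outside the limits were few for CD3, with 3 WT and 17 KO cells at 1 CD3 UMI, and many for Bcl11b, with 111 WT and 251 KO cells that met every other limit at 0 Bcl11b UMIs. Those cells had less Il17rb than the intermediates, 102 CPM in WT and 50.8 in KO, and less Stab2, 57.3 and 33.3 CPM. Cells at 0 Gata3 UMIs, 0 Maf UMIs or 1 CD3 UMI also had less of both. Cells at 2 receptor UMIs (19 WT, 27 KO) had 176 and 322 CPM of Il17rb, and 164 and 136 of Stab2. Cells at 2 Zbtb16 UMIs (4 and 22) had 635 and 284 CPM of Il17rb, and 254 and 79.4 of Stab2. The receptor and Zbtb16 limits thus cut through cells that carry both markers.

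The other 4 markers given for these cells were all present well above the early B background. Il17rb was at 294 CPM in WT (238 to 361) and 306 in KO (278 to 335), against 14.5 and 7.53 in early B cells. Arg1, the enzyme that splits arginine, was at 158 and 110 CPM, Cxcr6, a receptor for the chemokine CXCL16, at 155 and 104, and Stab2, a scavenger receptor for hyaluronan, at 338 and 110. Early B levels of these 3 genes were at most 1.58 CPM. ILC2 carried the same markers: by the rule given below, 0 of the 4 were called higher and 0 lower than in ILC2 in both libraries. Over all measured genes these shares were 1.29% and 1.35%. A UMI was found in 72.1% of WT ILC2 for Il17rb, 34.7% for Arg1, 40.5% for Cxcr6 and 37.6% for Stab2. In WT intermediates these shares were 59.2%, 36.7%, 42.9% and 40.8%.

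The number of these markers with a UMI varied from cell to cell. A UMI of Il17rb was found in 29 of 49 WT intermediates (59.2%, interval 44.2 to 73.0) and 121 of 178 KO (68.0%, 60.6 to 74.8), and in 39.6% and 39.3% after thinning to 2000 UMIs. The early B shares were 18.1% and 8.32% unthinned, at median depths of 14871 and 12379 UMIs, and 2.08% and 0.853% thinned. None of the 4 markers had a UMI in 11 WT and 28 KO intermediates, and all 4 had one in 7 WT and 7 KO. At these depths a missing UMI does not show that a cell lacked the transcript. Stab2 was the marker whose share differed most between the libraries, with 20 of 49 WT cells (40.8%, 27.0 to 55.8) and 46 of 178 KO cells (25.8%, 19.6 to 32.9). Thinned, these shares were 29.2% and 15.7%, and their intervals overlap at either depth.

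**Figure D1:**
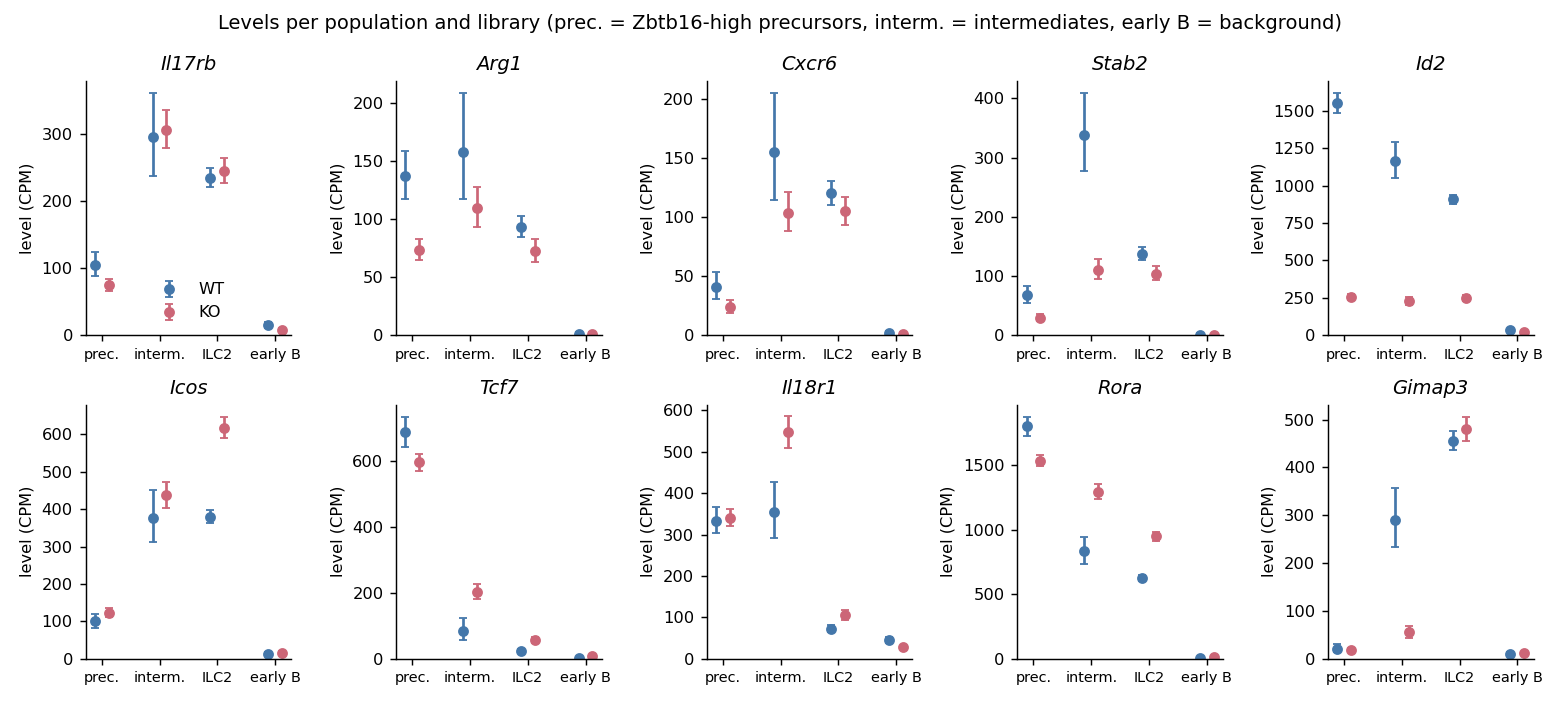
Levels in CPM (vertical axes, from 0) of 10 genes in Zbtb16-high precursors, intermediates, ILC2 and early B cells, for WT (blue) and KO (red), with 1 library each. Bars are exact Poisson 95% intervals for counting error. Il17rb is near 300 CPM in the intermediates of both libraries, and Id2 is lower in KO in the precursors, the intermediates and ILC2.

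Compared with Zbtb16-high precursors, the intermediates were higher in 34 genes (1.05% of 3242 measured) and lower in 36 (1.11%). A gene was measured with at least 30 UMIs over both sums and at least 50 CPM in the higher one, and called when it differed at least 2-fold with an interval of the ratio that leaves out 1, in the same direction in both libraries. The rule genes were left out of these counts. Depth bears on them: with cells thinned to 2000 UMIs 9 and 8 genes were called, and with cells of 3000 to 10000 UMIs 13 and 17.

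Of 19 measured genes of the ILC2 identity list 7 were higher and 1 lower, and of 14 homing and adhesion genes 2 were higher and 0 lower. Over all measured genes these shares were 1.05% and 1.11%. Icos, the costimulatory receptor, was at 376 CPM in WT intermediates against 99.9 in precursors (3.77-fold, 2.91 to 4.87) and at 437 against 123 in KO (3.55-fold, 3.14 to 4.02). Ly6a, which encodes the surface protein Sca-1, was 10.7-fold and 5.05-fold higher. Cxcr6 was 3.8-fold and 4.36-fold higher, and Ccr9, the receptor for the gut chemokine CCL25, 6.33-fold and 4.18-fold. Stab2 was 5.00-fold and 3.74-fold higher, and Il17rb 2.81-fold and 4.11-fold. Arg1 was not called, at 1.16-fold (0.827 to 1.59) and 1.5-fold (1.22 to 1.83). Other higher genes encode signalling proteins of lymphocytes: Rasgrp1, a Ras activator downstream of antigen receptors, was 4.76-fold and 6.71-fold higher, and Skap1, an adaptor for integrin activation, 3.1-fold and 3.33-fold. Hlf, Lztfl1 and Slfn2 completed the 10 highest, at 2.85-fold to 7.32-fold.

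The lower genes were led by transcripts close to absent from the intermediates. Fgf3, a fibroblast growth factor, was at 3.16 and 1.34 CPM against 133 in the precursors of both libraries, from 1 and 2 UMIs, which is 42.0-fold lower in WT (7.45 to 1670) and 99.3-fold in KO (27.3 to 822). Igfbp7 was at 6.33 and 2.67 CPM against 166 and 101, and the troponin gene Tnni1 at 3.16 and 0 CPM against 144 and 73.2. The signalling subunits Tyrobp and Fcer1g, which serve activating receptors of natural killer (NK) and myeloid cells, were 6.64-fold and 8.11-fold lower, and 5.06-fold and 5.93-fold lower. Nrgn, Gfod1 and Igfbp4 were lower by 3.77-fold to 9.39-fold, and Cacna1e and Cpne2, with 3 and 1 UMIs in WT intermediates, by 3.70-fold and 3.11-fold in KO. Of 17 measured genes of the ILC precursor list, 0 were called higher and 4 lower in both libraries, beside 1.05% and 1.11% of all measured genes. Tcf7 was 8.06-fold lower in WT intermediates than in WT precursors (5.50 to 12.3) and 2.94-fold lower in KO (2.61 to 3.33). Tox2, a relative of the precursor factor Tox, was 17.0-fold (8.18 to 42.4) and 2.26-fold (1.89 to 2.73) lower, and Runx3 3.40-fold and 2.88-fold. The WT and KO intervals for Tcf7 and for Tox2 do not overlap, and the difference between the libraries was not tested.

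Compared with ILC2, the intermediates were higher in 40 genes (1.29% of 3102 measured) and lower in 42 (1.35%). With factors from the trimmed mean of M values (TMM), which lower every log2 ratio in this comparison by 0.23 in WT and 0.29 in KO, the split was 22 higher and 80 lower. Il18r1, a receptor chain for interleukin-18, was at 354 CPM in WT intermediates against 72.9 in ILC2 (4.86-fold, 3.89 to 6.03) and 547 against 106 in KO (5.17-fold, 4.54 to 5.92). Tcf7 was 3.50-fold and 3.53-fold higher, so it lay between the end points in both libraries. Nkg7, a granule gene of NK and cytotoxic cells, was 5.30-fold and 3.40-fold higher, S100a6 3.09-fold and 3.51-fold, and Dpp4, a cell surface peptidase, 2.98-fold and 2.97-fold. Igfbp4, Atp8b4, Nsd2 and Uqcrq were higher by 2.61-fold to 5.23-fold.

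Of 22 measured genes of the ILC2 identity list, 1 was called higher and 6 lower than in ILC2, beside 1.29% and 1.35% of all measured genes. Calca, which encodes the neuropeptide CGRP, was at 44.3 CPM against 1278 in WT (28.9-fold lower, 17.2 to 52.8) and 174 against 1178 in KO (6.75-fold, 5.95 to 7.68). Tnfrsf18, the receptor GITR, was 3.35-fold and 5.86-fold lower, Cebpb 3.38-fold and 4.26-fold, Neurl3 4.46-fold and 6.37-fold, and Rnf128, an ubiquitin ligase, 5.74-fold and 21.5-fold. The amino acid transporter gene Slc7a8 and Rab27b were lower by 2.97-fold to 4.71-fold, and Metrnl, with 3 UMIs in WT intermediates, by 5.30-fold (1.79 to 25.9) and 6.61-fold (3.84 to 12.3). Ly6a, higher than in precursors, was 2.21-fold and 4.84-fold lower than in ILC2. The basophil protease genes Mcpt8 and Prss34 were also lower, by 6.65-fold to 19.1-fold, and early B cells carried both (Mcpt8 299 and 179 CPM, Prss34 515 and 291 CPM), more than the intermediates did. The part of free basophil RNA in these values was not tested.

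Across genes that differ between the end points, the WT intermediates lay nearer to ILC2 and the KO intermediates nearer to the precursors. A gene's position is its log2(CPM + 5) in the intermediates, scaled so that precursors are at 0 and ILC2 at 1, over genes called in the other library so that the end points were not chosen on their own noise. The median position was 0.689 in WT over 434 genes (quartiles 0.417 and 0.940) and 0.404 in KO over 450 genes (0.165 and 0.605). Between 0 and 1 lay 309 of the WT genes (71.2%) and 365 of the KO genes (81.1%). On the 297 genes read in both libraries, 251 had the higher position in WT, with medians of 0.700 and 0.410. Genes higher in ILC2 had medians of 0.661 in WT and 0.449 in KO, and genes higher in precursors 0.705 and 0.345, so the position was lower in KO for both kinds of gene. The median for KO members without a Trdc UMI was 0.443. Of the receptor genes the rule allows 1 UMI, which 24 WT and 50 KO intermediates had, while 25 and 128 had 0. The libraries thus differed in the share of cells at this limit. The part of these cells in the positions was not tested on its own. Under the stricter rule, which kept 20 WT and 95 KO cells, the medians were 0.573 and 0.391. Genes share cells and are not replicates, and positions are set by the end points of each library, whose own levels differed between WT and KO for some genes.

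**Figure D2:**
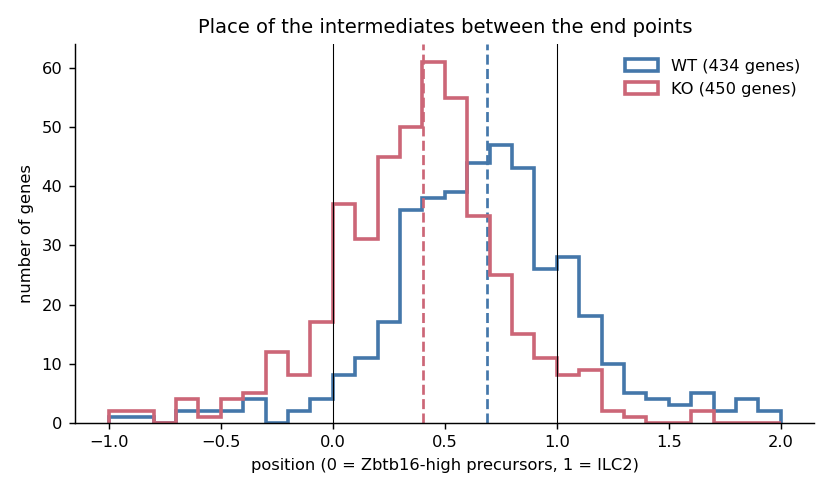
Histogram of gene positions (horizontal axis, without unit) against the number of genes, for WT intermediates (blue, 434 genes) and KO intermediates (red, 450 genes), from -1 to 2, with genes outside that range not drawn. Dashed lines are the medians, 0.689 and 0.404, and the KO distribution sits to the left of WT.

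Some single genes did not follow this median. Il17rb was at 1.28 in WT and 1.19 in KO, Cxcr6 at 1.24 and 0.993, Icos at 0.992 and 0.782, and Stab2 at 2.30 and 1.05. The levels of these genes lay near or past those of ILC2 in both libraries, with Icos in KO the lowest of them. Other genes lay elsewhere. Ly6a was at 0.739 and 0.488 and Tcf7 at 0.644 and 0.469, nearer to the medians. Il18r1 was at -0.040 and -0.409, at or past the precursor end. No order in time was measured, so a position is a place between levels and not a stage.

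Between KO and WT intermediates, 128 genes were higher in KO (3.46% of 3704 measured) and 92 lower (2.48%), and the median log2 ratio over all measured genes was 0.027. In precursors 0.917% and 0.325% of measured genes were called higher and lower, and in ILC2 0.5% and 0.833%. These shares depend on UMI totals, which are smallest in the 49 WT intermediates (316175 UMIs, against 1495729 in the 178 KO cells). Single cells weigh on these counts: with the highest cell of each gene left out of both sums, 113 of the 128 higher genes and 36 of the 92 lower genes were still called. This takes relatively more from the 49 WT cells than from the 178 KO cells. It so favours calls higher in KO, which rose to 234 in all, and works against calls lower in KO. Of the 128 higher genes, 100 were measured in precursors, where 11 were called the same way, 1 the opposite way and 72 had the same sign. In ILC2 62 were measured, with 8 called the same way, 1 the opposite way and 45 of the same sign. Of the 92 lower genes, 23 were measured in precursors (4 called the same way, 2 the opposite way, 16 of the same sign). In ILC2 42 were measured (9, 0 and 30). The same-sign share over all measured genes was not taken, so the sign counts have no background beside them.

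Id2 was 5.15-fold lower in KO intermediates, at 227 CPM against 1167 in WT (interval of the ratio 4.43 to 5.99). The difference was 6.09-fold in precursors (255 against 1552) and 3.68-fold in ILC2 (247 against 908), so Id2 in the intermediates lay close to either neighbour of the same genotype. A UMI of Id2 was found in 41 of 49 WT cells and 111 of 178 KO cells. The log2 ratio ranged from -2.45 to -1.85 over the alternatives, and stayed called in every one. Of the E protein genes whose products ID2 binds, Tcf12 was at 117 and 172 CPM, Tcf3 at 63.3 and 92.3, and Tcf4 at 187 and 128, none of them called. Id3 was near its floor, with 0 and 10 UMIs.

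**Figure D3:**
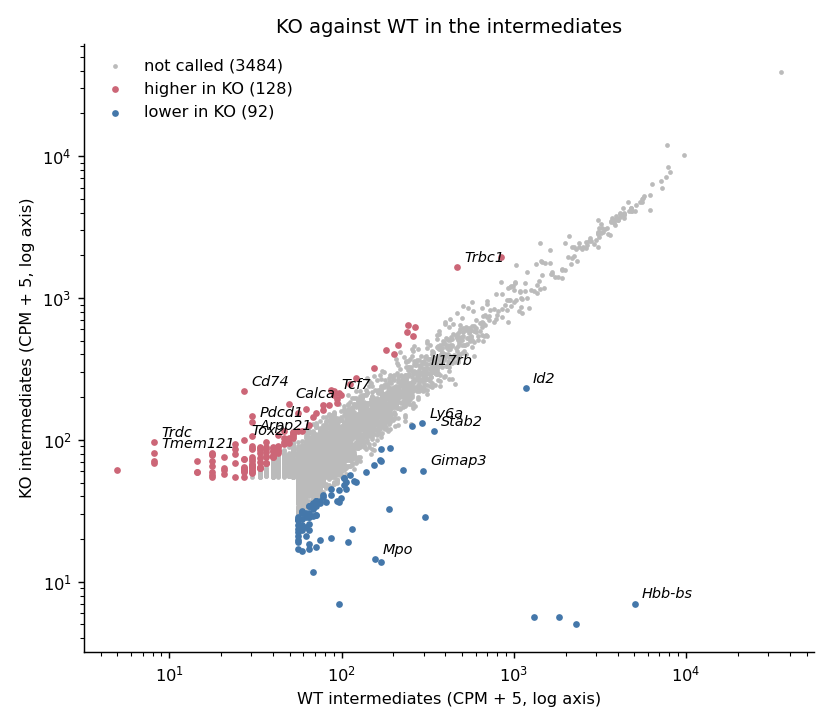
Level of each of 3704 measured genes in WT (horizontal) and KO intermediates (vertical), as CPM + 5 on log axes, with 128 genes called higher in KO in red and 92 lower in blue. Id2 stands apart at 1167 against 227 CPM, and the haemoglobin genes at the lower right come from 1 WT cell.

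T lineage transcripts other than CD3 were higher in KO intermediates. Of 26 genes in this list 14 were measured, of which 11 were at least 1.5-fold higher and 0 lower, beside 12.6% and 8.83% of all measured genes, with a median log2 ratio of 0.92. Calls at 2-fold numbered 7 higher and 0 lower, beside 3.46% and 2.48% of all measured genes. Trdc, the constant region of the T cell receptor delta chain, had UMIs in 1 of 49 WT cells (2.04%, interval 0.0517 to 10.9) and 60 of 178 KO cells (33.7%, 26.8 to 41.2), at 3.16 and 90.9 CPM. Thinned to 2000 UMIs, 0 of 48 and 27 of 178 cells (15.2%) had one. The early B shares were 1.51% and 1.07% unthinned. The precursor shares were 10.1% in WT and 17.9% in KO, and 2.27% and 4.98% thinned, so WT precursors carried Trdc too. Trbc1, the beta chain constant region, was at 462 CPM in WT and 1646 in KO (3.56-fold, 3.02 to 4.24). The precursors had 1473 and 1617 CPM, so the KO level lay near that of its precursors and the WT level below. Its near-identical neighbour Trbc2 was at 408 and 437 CPM. Reads of the pair could be split between them in counting. Lck and Themis, which act downstream of the T cell receptor, were 2.24-fold (1.43 to 3.70) and 2.68-fold (1.36 to 6.01) higher, Trat1 2.77-fold (1.36 to 6.59) and Prkcq 2.19-fold (1.31 to 3.93). The Lck call was lost in 3 of 12 alternatives, with a log2 ratio down to 0.61, and each of the other 3 calls in 1. Early B cells carried Lck too, with a UMI in 56.8% of WT and 56.1% of KO cells, and in 10.4% and 12.4% thinned. In the intermediates the thinned Lck shares were 6.25% and 19.7%. The part of free RNA in the Lck values was not tested. The summed level of the list was 2284 CPM in WT and 4531 in KO intermediates, against 3570 and 3689 in precursors and 1724 and 2104 in ILC2. The rule required 0 CD3 UMIs, which at these depths does not show that a cell lacked CD3 transcripts.

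Of 18 measured of 27 listed precursor genes, 6 were at least 1.5-fold higher in KO and 2 lower, beside 12.6% and 8.83% of all measured genes. Calls numbered 4 higher and 0 lower, beside 3.46% and 2.48%, and the median log2 ratio was 0.14. Pdcd1, which encodes the receptor PD-1 that marks ILC precursors, was at 25.3 CPM in WT and 128 in KO (5.05-fold, 2.51 to 11.9), with UMIs in 7 and 78 cells. Tox2 was at 22.1 and 94.9 CPM (4.29-fold, 2.03 to 10.9), Tcf7 at 85.4 and 203 (2.37-fold, 1.60 to 3.66), and Sox4, a factor of lymphoid progenitors, at 177 and 423 (2.39-fold, 1.82 to 3.20). With thinned cells the Tox2 and Sox4 calls were lost (log2 ratios of 0.56 and 0.98). Sox4 lost its call in 3 of 12 alternatives in all and Tcf7 in 1. Among precursors themselves these 4 genes were not called, and Pdcd1 and Tox2 were at 240 and 376 CPM in WT against 158 and 215 in KO. Cd7 was at the other end of the list, with a log2 ratio of -0.81.

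Of 8 measured of 18 lymphoid progenitor genes, 3 were at least 1.5-fold higher and 0 lower, beside 12.6% and 8.83% of all measured genes. Calls numbered 2 higher, beside 3.46%, and the median was 0.43. Arpp21 was at 25.3 and 102 CPM (4.04-fold, 2.00 to 9.53). Satb1, a chromatin organiser of lymphoid progenitors and thymocytes, was at 149 and 318 (2.14-fold, 1.58 to 2.95), and Ly6d at 38.0 and 70.2, without a call. The Satb1 call was lost in 4 of 12 alternatives, with a log2 ratio of 0.59 at the lowest. Arpp21 was also called in precursors (36.1 and 107 CPM). Arpp21, Myl10 and Ly6d were abundant in early B cells (276 and 298 CPM for Arpp21, 614 and 650 for Myl10, 1489 and 1075 for Ly6d), so free RNA could carry them, and its part was not tested. Myl10 was at 25.3 and 142 CPM in the intermediates. In the Notch and TCF1 partner list, 3 of 9 measured genes were at least 1.5-fold higher and 2 lower (median 0.074), beside the same 12.6% and 8.83%. The 3 higher genes were called, beside 3.46% of all measured genes called higher. They were Tcf7, Myb, a progenitor factor, at 85.4 and 216 CPM, and the Notch target Hes1 at 60.1 and 122. Myb and Hes1 each lost the call in 3 of 12 alternatives. The 2 lower genes, Axin2, a target of beta-catenin and TCF factors (log2 ratio -0.82), and the receptor gene Notch2 (-0.66), were not called. Tmem121, Cpne2, Cd24a and Ctsl were among the 12 highest genes, each with UMIs in 1 to 3 WT cells and 42 to 54 KO cells. Of these, Tmem121 also had a UMI in 51.3% of WT and 65.5% of KO early B cells, and in 14.1% and 15.4% thinned. In the intermediates the thinned Tmem121 shares were 0% and 9.55%. Free RNA could carry Tmem121 as well, and its part was not tested.

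Other genes among the highest drew much of their KO sum from 1 cell or had UMIs in few cells. The class II antigen presentation genes Cd74, H2-Aa and H2-Eb1 were at 22.1, 3.16 and 0 CPM in WT and 216, 65.5 and 56.2 in KO, and 1 KO cell held 40.2%, 41.8% and 44.0% of the KO UMIs. Of Nudcd1 1 cell held 78.9%, and of Olfr1369-ps1 86.2%. The cell cycle gene Cdca3 had UMIs in 3 WT and 19 KO cells.

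**Figure D4:**
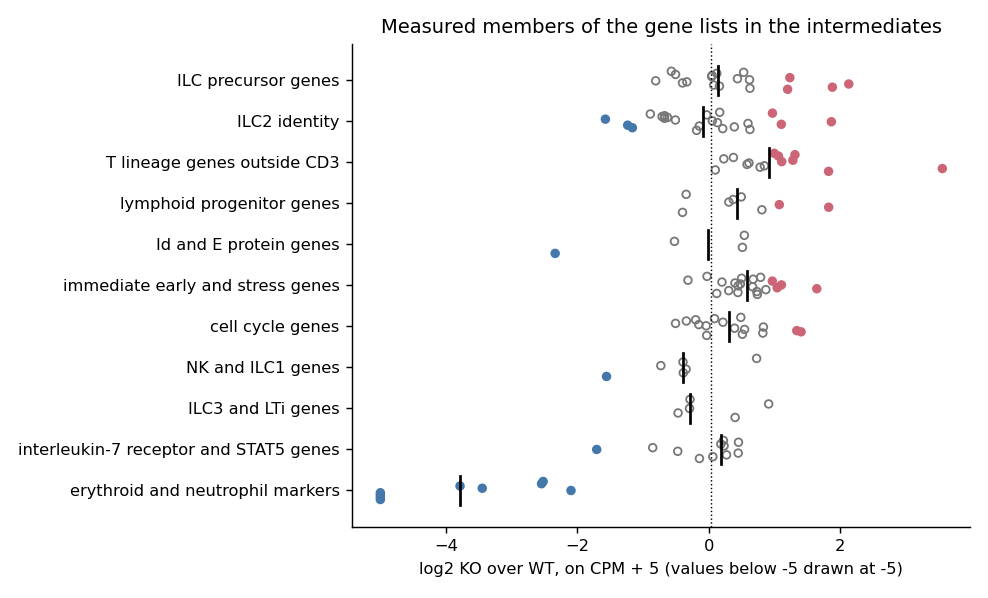
Log2 ratio of KO over WT, on CPM + 5 (horizontal axis), for each measured gene of 11 lists in the intermediates, with genes called higher in red, called lower in blue and others open. Black bars are list medians and the dotted line is the median of all measured genes, 0.027. The T lineage list has its median at 0.92 and no gene below 0.

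ILC2 identity genes moved both ways. Of 22 measured of 40 listed, 5 were at least 1.5-fold higher and 8 lower, with a median of -0.089, beside 12.6% and 8.83% of all measured genes. The median was above 0 with thinned cells (0.12) and at 3000 to 10000 UMIs (0.31). Stab2 was 3.07-fold lower in KO (2.38 to 3.94), and 2.30-fold lower in precursors (29.5 against 67.6 CPM), but 1.33-fold in ILC2. Its call was lost in 3 of 12 alternatives, at log2 ratios of -0.69 with thinned cells, -0.94 under the stricter rule and -0.57 at 3000 to 10000 UMIs, beside -1.57. Ly6a was at 288 CPM in WT and 126 in KO (2.29-fold lower, 1.76 to 2.96), and Cysltr1, a leukotriene receptor, at 101 and 40.1 (2.52-fold, 1.59 to 3.94), while both were near equal in ILC2 (635 and 608 CPM for Ly6a, 130 and 126 for Cysltr1). The same held for Gimap3, a lymphocyte GTPase, at 291 and 55.5 CPM (5.24-fold, 3.85 to 7.14) against 456 and 480 in ILC2, for Ptpn13, a phosphatase, at 60.1 and 12.0 against 133 and 139, and for Lpcat2, an enzyme of lipid mediator synthesis, at 66.4 and 12.7 against 110 and 99.9. All 6 of these genes stayed called without their highest cell, while Ly6a lost its call in 2 of 12 alternatives and Cysltr1 in 1 (log2 ratio -0.52 under the stricter rule). Ptpn13 and Lpcat2 kept the call in the 8 and 9 alternatives where they were measured, and were under the minimum in the others. Rora was at 835 and 1291 CPM, 1.55-fold higher (1.36 to 1.77), Icos at 376 and 437, and Lmo4 at 2087 and 2733. Calca was called higher in KO, at 44.3 and 174 CPM, but 1 KO cell held 28.4% of its UMIs and the log2 ratio was -1.29 with thinned cells.

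Type 2 effector genes were mostly under the minimum, with 2 of 14 measured, Calca and Furin (104 and 106 CPM). In the interleukin-7 receptor and STAT5 list, 0 of 11 measured genes were at least 1.5-fold higher and 2 lower (median 0.18). Over all measured genes these shares were 12.6% and 8.83%. Socs2 was at 50.6 and 12.0 CPM (4.21-fold lower, 2.01 to 8.74), and Cish at 63.3 and 32.8 without a call. Both are feedback genes of cytokine signalling. Socs2 was no longer called without its highest cell.

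Markers of other innate lymphocytes gave few calls. Of 6 measured NK and ILC1 genes, 1 was at least 1.5-fold higher and 2 lower (median -0.39), and Ncr1, which encodes NKp46, was at 56.9 and 16.0 CPM with UMIs in 4 and 10 cells. Of 5 measured ILC3 genes 1 was 1.5-fold higher and 0 lower (median -0.29). Both lists are small, and over all measured genes 12.6% were 1.5-fold higher and 8.83% lower.

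Of 20 measured immediate early and stress genes, 10 were at least 1.5-fold higher in KO and 0 lower, with a median of 0.58. Over all measured genes these shares were 12.6% and 8.83%. Dusp1, a phosphatase of MAP kinases, was at 256 and 532 CPM and was also called in precursors (115 and 237) and in ILC2 (323 and 647). Tnfaip3, an inhibitor of NF-kappaB, behaved alike, at 82.2 and 218 CPM in intermediates, 45.3 and 94.1 in precursors and 147 and 313 in ILC2. Of the 10 measured NF-kappaB and interferon genes 4 were at least 1.5-fold higher and 2 lower (median 0.48). Birc3 was at 117 and 45.5 CPM, lower in KO, with a log2 ratio of 0.40 under the stricter rule.

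The remaining lists gave smaller numbers. Of 16 measured cell cycle genes 5 were at least 1.5-fold higher and 0 lower (median 0.30), with Birc5 at 28.5 and 83.6 CPM and Ube2c at 38.0 and 104, while Mki67 had a log2 ratio of -0.032 and UMIs in 17 of 49 and 42 of 178 cells. Homing and adhesion genes showed 2 of 14 higher and 1 lower (median 0.060), close to the 12.6% and 8.83% of all measured genes, with the integrin gene Itgb1 at 111 and 63.5 CPM. Among 5 measured MAF related genes 1 was higher, Maf itself, which the rule used, and 0 lower (median 0.28). The plasmacytoid dendritic cell list had 1 of 6 higher and 1 lower (median -0.24), the B lineage list 2 of 2 higher (median 0.77), the monocyte list 0 of 1 in either direction (0.088), and the basophil and mast cell list 1 of 3 higher and 2 lower (median -1.09). Summed levels of the basophil list were 395 CPM in WT and 160 in KO intermediates, and 2347 and 1065 in ILC2. In the marker list itself, Bcl11b and Maf were higher, Stab2 lower, and the median was -0.23.

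The KO intermediates were not uniform. Those with a Trdc UMI (60 cells, median 8428 UMIs) and those without (118 cells, 6660.5 UMIs) shared Il17rb, at 313 and 301 CPM, and 44 of the 60 had an Il17rb UMI. They differed in Id2, at 97.1 CPM with Trdc and 313 without, in Stab2, at 23.4 and 168, in Arg1, at 45.2 and 153, and in Calca, at 21.8 and 276. Cells with Trdc had more Bcl11b (860 against 543 CPM), Maf (1160 against 774), Trbc1 (2023 against 1395), Tcrg-C1, a gamma chain constant region (420 against 134), Sox4 (515 against 362) and Myb (326 against 143). Without the Trdc-positive cells the KO share was 1.86 times the WT share, and Id2 was still 313 against 1139 CPM. Cells with a Stab2 UMI in KO (46) had 929 CPM of Trbc1 and those without (132) 1929. These are descriptions of cells grouped by a UMI they carry, within 1 library and at unequal depth.

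Across single cells the summed T lineage level ranged from 0 to 5091 CPM in WT (median 2179) and from 448 to 12804 in KO (median 4140). The summed ILC2 identity level, taken without Gata3 and the receptor genes that the rule used, ranged from 1249 to 13830 in WT (median 5844) and from 437 to 32276 in KO (median 7512). The ranges overlap for both sums.

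**Figure D5:**
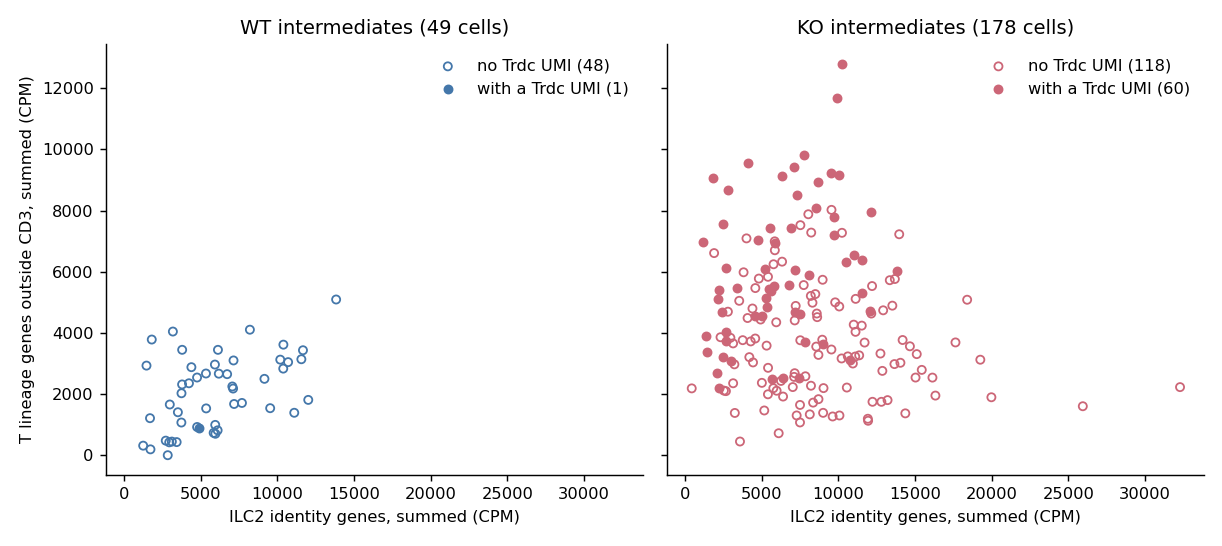
Each point is 1 intermediate, by its summed level of ILC2 identity genes outside the rule (horizontal, CPM) and of T lineage genes outside CD3 (vertical, CPM), in WT (left, 49 cells) and KO (right, 178 cells). Filled points have a Trdc UMI, 1 in WT and 60 in KO, and the T lineage sum itself includes Trdc. KO cells reach 12804 CPM on the vertical axis and WT cells 5091.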

How the data were processed

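Raw UMI counts per gene and barcode were deposited by the authors as 2 matrices, 1 per genotype. They were written by Cell Ranger 3.1.0 per the file headers, and the submitters' processing notes also name Seurat and mm10, while neither gives the gene annotation release. Deposited barcodes numbered 20293 (WT, 47883132 UMIs) and 8476 (KO, 52137780), with at least 527 and 500 UMIs each, so a minimum or cell caller preceded deposit.

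Barcodes with at least 1000 genes and at most 10% mitochondrial UMIs were kept. UMIs were summed per population and library, expressed as CPM with exact Poisson intervals, and ratios were given exact conditional binomial intervals at 95% confidence, which cover counting error and neither cell-to-cell nor animal variation. Log2 ratios used CPM + 5. With 1 library per genotype no test was made and no p-value is given. Thinning used 2000 UMIs per cell (seed 0), and left out 1 WT and 0 KO intermediates. Doublets were not removed in the values reported: Scrublet (scanpy 1.11.5) marked 0 WT and 27 KO cells, and in an alternative the 8% of WT barcodes with the highest scores were removed with ties, 975 in all. The computation ran in Python 3.11.15 and was tested on simulated data.

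The members, the gene lists and the comparisons were chosen with earlier results of these data known. Genes were named by this rule: the 12 highest and 12 lowest called in KO against WT, the 10 highest and lowest called in both libraries against each neighbour, Id2, the markers, the rule genes, and from each list the 4 measured genes with the largest absolute log2 ratio, or fewer. It passes over genes of antigen receptors, haemoglobin, ribosomes, mitochondria and the sex chromosomes, and gene models without a symbol, so Trdc, Trbc1, Trbc2, Tcrg-C1 and further list members were named after their values were seen, among them Rora, Lmo4, Tcf3, Tox2 against precursors, Runx3, Cd7, Notch2 and Mki67. Alternatives covered cell filters, doublets, thinning, a stricter rule, a depth window, TMM, cell means, minimums, fold and pseudocount. Some genes that this rule names are not reported here.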

Additional observations from a re-analysis of the deposited data

Results flagged for a closer look

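Among the genes called in one direction in the intermediates, 4 were called in the opposite direction in a neighbouring population, which sets their KO over WT difference apart there. The difference between populations was not tested, and each group is 1 library. Prss34 had a log2 ratio of KO over WT of -2.54 in the intermediates and 1.02 in Zbtb16-high precursors (183 and 27.4 CPM against 64.6 and 136 CPM). Mcpt8, another basophil protease gene, was at -1.09 in the intermediates, from 26 and 54 UMIs, and at 0.95 in precursors. Both genes were also present in early B cells. Tiam1, an activator of the GTPase Rac, was at 1.10 in the intermediates (47.4 and 108 CPM) and -1.30 in precursors (244 and 96.4 CPM). Irf8, a factor of dendritic and B cells, was at 1.44 in the intermediates, where 1 KO cell held 47.6% of its UMIs, and at -0.99 in ILC2 (163 and 79.5 CPM).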

How the results depend on the processing

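No paired analysis was possible because each genotype has 1 library. No replicate could be left out for the same reason. The share ratio of 2.75 became 5.24 with a minimum of 500 genes, 1.54 with thinned cells and 1.86 without Trdc-positive members, the last added after seeing the data. Genes higher in KO, 128 in all, numbered 194 at 5% mitochondrial UMIs, 205 under the stricter rule, 245 at 3000 to 10000 UMIs, 317 without a minimum, 40 at 100 UMIs and 100 CPM, 293 at 1.5-fold and 234 without each gene's highest member, an alternative added after seeing the data that takes relatively more from the 49 WT cells. Genes lower in KO, 92, numbered 28 with thinned cells, 303 without a minimum, 21 at 100 UMIs, 223 at 1.5-fold and 36 without the highest member. Against precursors, 34 higher and 36 lower genes became 9 and 8 with thinned cells, 13 and 17 in the depth window, 124 and 101 without a minimum, 18 and 23 at 100 UMIs, and 125 and 89 at 1.5-fold. Against ILC2, 40 and 42 became 22 and 80 with TMM, 161 and 81 without a minimum, 18 and 27 at 100 UMIs, and 184 and 87 at 1.5-fold. The median position of 0.689 in WT was 0.573 under the stricter rule, 0.601 in the depth window and 0.621 with TMM, and that of 0.404 in KO was 0.230 with thinned cells and 0.288 in the depth window. WT stayed above KO in each of these settings. Calca reversed to -1.29 with thinned cells and Birc3 to 0.40 under the stricter rule. Of 53 named genes called between KO and WT, 26 lost the call with the same direction in at least 1 setting, most often Satb1 and Klf4 (4 of 12), and Stab2, Sox4, Myb, Lck, Hes1, Dusp6 and Irf8 (3 each). Some named genes were not measured in every setting, Dusp6 and Irf8 among them. The settings that took most calls were the stricter rule (9), the mean over cells (8) and thinned cells (7). Apart from the changed minimum or fold and the lower totals of thinned cells, the cause was not tested. With thinned cells 53 named genes were no longer measured, 33 of them called before. Depth limits most the 49 WT cells, where 30 UMIs over both libraries can rest on 1 cell.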
